A study of Mus musculus with 4 samples.

Results

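The genes described here are 42 genes of glucose breakdown and of the cellular response to low oxygen, of 20660 genes that the array's probes name. They were taken from a named list, and each was found through the reference accession of its probes, 70 probes in all. Each was measured in mouse EB5 embryonic stem (ES) cells carrying an RFP reporter of Hoxb6, a homeobox gene of posterior mesoderm. The cells had spent 6 days of differentiation on OP9, a feeder line of mouse marrow stroma, and were sorted for Flk-1 (Kdr), a VEGF receptor that marks mesoderm able to form blood and vessels. Total RNA of the Flk-1+ Hoxb6-RFP+ fraction and of the Flk-1+ Hoxb6-RFP- fraction was compared on 2 one-colour arrays per fraction. Both fractions share the EB5 background, the reporter, the feeder coculture and the Flk-1 gate. The labels name neither separate cultures nor separate ES clones, so p-values measure only the spread between these arrays, which may be technical. RNA was read in bulk, so fewer cells of a type and less RNA per cell cannot be told apart.

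Glycolysis splits glucose into pyruvate through a chain of cytosolic enzymes, and lactate dehydrogenase turns pyruvate into lactate when it is not burned in mitochondria. At low oxygen the prolyl hydroxylases (Egln genes) stop marking the alpha subunits of hypoxia-inducible factor (HIF) for the ubiquitin ligase subunit Vhl. The alpha subunits then pair with Arnt and raise transcription of most glycolytic enzymes and of genes such as Bnip3, Car9 and Adm. ES cells and early embryonic mesoderm are known for strong glycolysis.

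The fractions did not differ detectably in any of the 42 genes. In the limma fit over all 13435 genes tested, with p-values adjusted after Benjamini and Hochberg, 0 of 42 passed an adjusted p of 0.05, beside 0% of all genes. Of the 40 genes well above background on all 4 arrays, 0 passed at an unadjusted p under 0.05. Of all 12422 genes well above background on all 4 arrays, 585 did, 276 higher and 309 lower. Among all genes tested the share was 6.49%, 2.77% higher and 3.72% lower. The adjusted p-values of the 40 genes ran from 0.745 to 0.984. The other genes are Egln1, near background on 1 RFP-positive array, and Hk3, at background on both RFP-negative arrays. Hk3 was kept only through the fraction where it is high, so its p (unadjusted under 0.05) sets a signal against background and is not read as a difference. The design has 2 residual degrees of freedom and detects only large differences. For 25 of the 42 genes the 95% interval of the log2 difference still lay between -1 and 1, that is, within a 2-fold change either way.

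Levels are log2 signals relative to each array's 75th percentile, and a difference is the RFP-positive mean minus the RFP-negative mean on that scale. Of the 42 genes, 25 lay below 0 (59.5%), beside 54.8% of all genes. The median difference was -0.06, and that of all genes was -0.05. The median size of the difference, whatever its sign, was 0.27 for the 42 genes and also 0.27 for all genes. In 36 genes the size of the difference was under 0.5, in 5 it was between 0.5 and 1, and Hk3 has only a bound. Single replicate arrays differed by a median of 0.21 in the RFP-negative and 0.26 in the RFP-positive fraction over these genes. The difference between fractions is between means over replicates, which vary less than single arrays. These sizes therefore do not show whether the fractions differed more than replicates did.

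**Figure D1:**
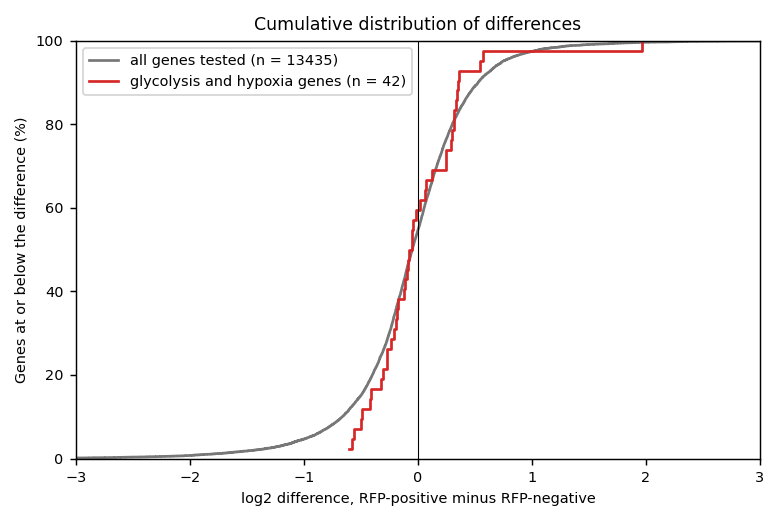
Cumulative share of genes (vertical axis, %) at or below each log2 difference between fractions (horizontal axis), for the 42 glycolysis and hypoxia genes and for all 13435 genes tested. The curves cross 0 close together, at 59.5% and 54.8%, and the 42 genes have no difference below -0.61; the rightmost step is Hk3, whose RFP-negative values are at background, so its place there has no exact meaning.

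Both RFP-positive arrays were below both RFP-negative arrays for 9 genes (21.4%): Pfkl, Pfkp, Aldoa, Gapdh, Pgk1, Pgam1, Pkm, Bnip3 and Adm. Both were above for 6 genes (14.3%): Hk1, Hk3, Aldoc, Pfkfb3, Egln3 and Vhl. Among all genes these shares were 21.6% lower and 18.8% higher, so neither count stood out from the background. In the other 27 genes the fractions overlapped. The Hk3 order is against background values. Of the 40 genes well above background on all arrays, 0 had every array of one fraction at least 2-fold from every array of the other. Of all 12422 genes well above background on all arrays, 21 did in the higher and 36 in the lower direction. Among all genes tested the shares were 0.469% and 0.893%. With arrays scaled to their medians the split was 11 higher and 6 lower, beside 24.4% and 16.6% of all genes. With normexp background correction it was 10 and 9, beside 18.6% and 23.3%, and with the deposited value table as given 8 and 5, beside 21.2% and 19.5%. A lone array cannot overlap a replicate, and the counts were larger with an array left out: 11 higher and 15 lower without RFP-negative replicate 1, 11 and 16 without RFP-negative replicate 2, 14 and 16 without RFP-positive replicate 1, and 12 and 19 without RFP-positive replicate 2. All genes moved likewise, to between 30.3% and 34.4% higher and between 32% and 46.9% lower.

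**Figure D2:**
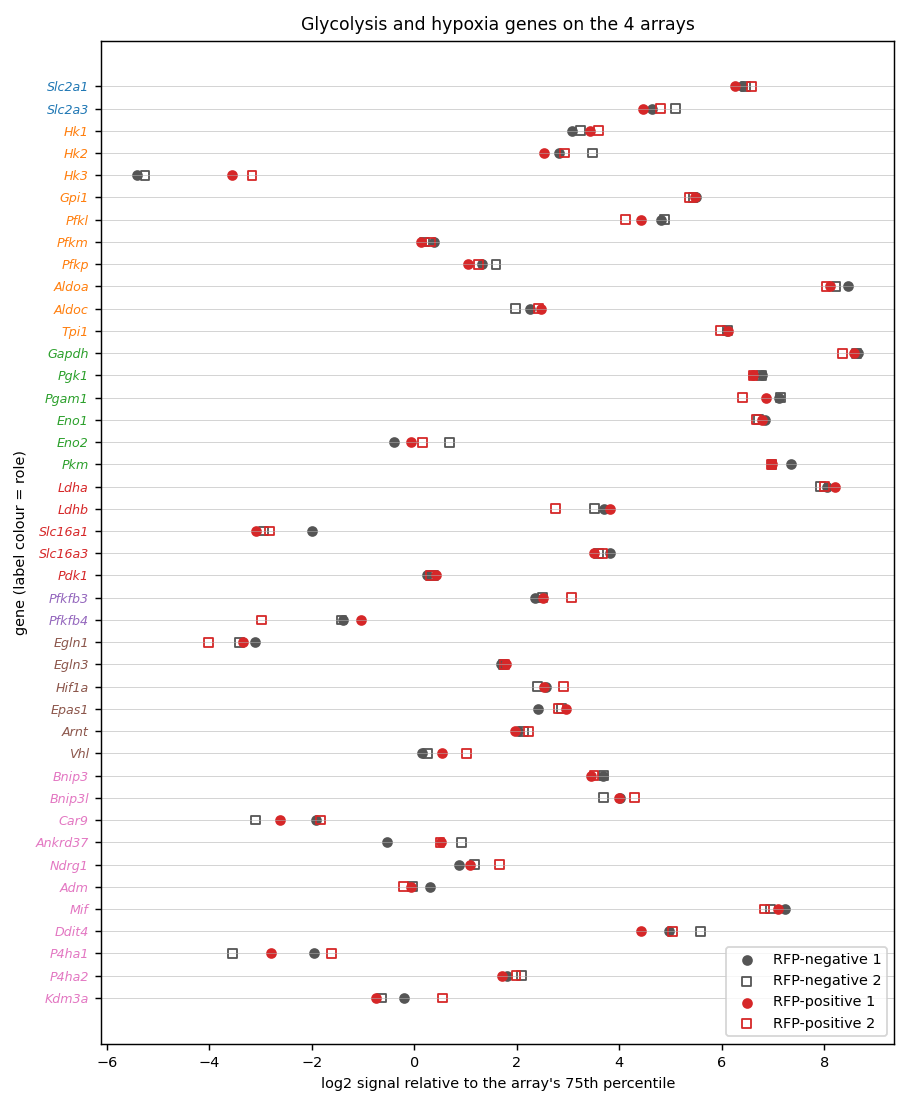
Level of each gene on each of the 4 arrays (horizontal axis, log2 signal relative to the array's 75th percentile), with genes in rows ordered and coloured by role, from glucose transport at the top to other hypoxia-induced genes at the bottom. Grey marks are RFP-negative and red marks RFP-positive arrays, circles replicate 1 and squares replicate 2; compare marks within a row only, since each row is a different probe. The grey Hk3 marks are not well above background.

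The 4 arrays lay on 1 slide and came from 1 scan, and 55.2% to 59.3% of their non-control spots were well above background, with none saturated. Over all genes RFP-positive replicate 2 stood furthest apart, with correlations of 0.950 to 0.964 against the others, beside 0.974 to 0.982 among the other 3 arrays. The gated receptor Kdr was well above background on all 4 arrays, at 4.18 and 4.33 without RFP and 4.41 and 4.36 with it. All 13 listed genes of Flk-1+ mesoderm and endothelium were well above background on all 4 arrays; 7 of them were higher and 0 lower in both RFP-positive arrays, with summed levels of 113 and 113 in the RFP-negative and 128 and 132 in the RFP-positive arrays, in units of the array's 75th percentile. Of 12 tested genes of OP9 stroma and fibroblasts, 9 were lower in both RFP-positive arrays. The summed level of the whole list was 74.2 and 117 in the RFP-negative and 62.8 and 51.5 in the RFP-positive arrays. Of 11 tested adipocyte genes 10 were lower, with sums of 51.6 and 63.0 against 22.0 and 16.3. Of 12 cell cycle genes 6 were lower and 1 higher, with sums of 135 and 124 against 124 and 97.7. Of 9 tested endoderm and epithelial genes 5 were lower, with sums of 31.3 and 56.8 against 28.1 and 24.2. Of 6 tested erythroid genes 1 was higher and 1 lower, and of 8 genes of undifferentiated ES cells 0 and 2. Of 9 immediate early genes, listed for handling, 1 was higher and 3 lower. Among all genes 21.6% were lower and 18.8% higher in both RFP-positive arrays. The stromal markers Dcn, Postn and Mmp3, the adipocyte gene Lep and the endoderm genes Afp and Apoa1 were well above background on none of the 4 arrays. The sum of the 42 genes was 2102 and 1977 in the RFP-negative and 1915 and 1778 in the RFP-positive arrays. The sum of all genes tested was 158808 and 149721 against 152903 and 135790. These sums are of unlogged levels, so the brightest genes weigh most in them. Each marker list was summed over all its genes, also those not tested. The part of mesoderm, feeder, adipocyte, endoderm, erythroid and undifferentiated ES cell RNA in the values described next was not tested. Nor was that of cell cycle, of handling or of RFP-positive replicate 2.

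HIF binds a short core in the DNA before its targets. The cores of 5 of these genes are shown because those genes are described next. Of these, 3 were lower without overlap (Pgk1, Pgam1, Bnip3), 1 was higher only against background values (Hk3) and 1 overlapped (Ldha). Each sequence is the RefSeq window of 300 bases on GRCm38.p6 from 250 bases before the start of transcription to 50 after it, in the direction of the gene. Capitals mark ACGTG or GCGTG on either strand (CACGT or CACGC where the core is on the other strand). The Pgk1 window is chrX:106186850-106187149, + strand. The Pgam1 window is chr19:41911621-41911920, + strand. The Bnip3 window is chr7:138909457-138909756, - strand. The Hk3 window is chr13:55021336-55021635, - strand. The first of the Ldha windows is chr7:46845554-46845853, + strand.
Pgk1: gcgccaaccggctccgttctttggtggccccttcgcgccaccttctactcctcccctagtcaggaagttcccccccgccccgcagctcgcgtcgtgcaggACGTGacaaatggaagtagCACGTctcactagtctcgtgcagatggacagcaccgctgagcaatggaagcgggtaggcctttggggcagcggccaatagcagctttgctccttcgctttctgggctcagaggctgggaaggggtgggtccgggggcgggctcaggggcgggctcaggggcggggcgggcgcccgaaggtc
Pgam1: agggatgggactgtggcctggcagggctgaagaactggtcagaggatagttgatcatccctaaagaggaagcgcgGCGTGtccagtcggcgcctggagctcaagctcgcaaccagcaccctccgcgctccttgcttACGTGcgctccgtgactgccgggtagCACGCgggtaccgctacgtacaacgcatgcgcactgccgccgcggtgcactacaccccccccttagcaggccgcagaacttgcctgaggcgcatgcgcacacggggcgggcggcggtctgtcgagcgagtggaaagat
Bnip3: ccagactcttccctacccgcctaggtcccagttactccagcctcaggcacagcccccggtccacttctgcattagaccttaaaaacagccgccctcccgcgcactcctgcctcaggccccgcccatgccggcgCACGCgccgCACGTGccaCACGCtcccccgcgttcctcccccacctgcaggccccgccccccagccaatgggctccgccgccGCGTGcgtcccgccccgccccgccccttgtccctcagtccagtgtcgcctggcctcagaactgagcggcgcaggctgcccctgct
Hk3: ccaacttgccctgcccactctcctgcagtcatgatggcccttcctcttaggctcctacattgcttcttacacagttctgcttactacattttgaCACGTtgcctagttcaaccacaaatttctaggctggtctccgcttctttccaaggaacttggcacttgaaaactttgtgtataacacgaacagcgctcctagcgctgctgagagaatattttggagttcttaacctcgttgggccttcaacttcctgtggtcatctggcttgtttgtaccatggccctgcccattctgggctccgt
Ldha: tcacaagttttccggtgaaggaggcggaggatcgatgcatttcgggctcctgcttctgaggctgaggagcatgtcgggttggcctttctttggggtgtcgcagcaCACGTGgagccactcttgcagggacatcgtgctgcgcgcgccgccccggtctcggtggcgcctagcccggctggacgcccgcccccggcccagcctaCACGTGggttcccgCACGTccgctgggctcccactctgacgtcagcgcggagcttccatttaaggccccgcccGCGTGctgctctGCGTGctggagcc

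Counted from the start of transcription, with -1 the base before it, the Pgk1 window has ACGTG from -150 and its reverse complement from -131. The Pgam1 window has cores from -175, -114 and -88. The Bnip3 window has them from -117, -108, -107, -99 and -35, where -108 and -107 are the 2 strands of one CACGTG. The Ldha window holds 2 such palindromes, from -145 and -48, a further ACGTG on the other strand from -34 and GCGTG from 26 and 38. The Hk3 window has 1, on the other strand, from -156.

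A window was matched for 38 of the 42 genes, 53 windows in all. ACGTG or GCGTG, searched on both strands, was in a window of 34 of these 38 genes (89.5%), beside 46.7% of the 27025 genes with a window. Counted by window, the shares were 79.2% of the 53 and 43.8% of all 32851. The list holds genes known to be raised by HIF, so a high share was partly built into it. ACGTG alone was in 65.8% of the 38 and 21.8% of all genes, and GCGTG alone in 63.2% and 35.2%. CACGTG, which contains ACGTG on both strands, was in 15.8% and 8.09%. The windows of these genes were richer in C and G: the median GC content was 61.3% beside 52.7% over all windows, and the median number of CpG pairs was 20 beside 7. GGGCGG, which has no HIF core in it, was in 76.3% of the 38 and 38.2% of all genes, while the TATAAA box was in 10.5% and 15.7%. The part of base composition in the HIF core's share was not tested. The core was in 9 of 9 genes lower without overlap, in 5 of 6 higher and in 20 of 23 overlapping. Hk3, higher only against background values, is among the 5. The share is so high that it leaves little room to differ between them. The windows of Eno2, Gpi1, Tpi1 and Vhl held neither ACGTG nor GCGTG. A match of letters is a description and not a binding site.

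Glucose enters through the facilitative transporters. Slc2a1, the widely expressed GLUT1, was at 6.40 and 6.46 in the RFP-negative and 6.25 and 6.58 in the RFP-positive arrays. Its difference was -0.02 ± 0.25 (SE), with a 95% interval from -0.66 to 0.63, and its sign turned to 0.15 with quantile normalization. The RFP-positive arrays enclosed the RFP-negative ones. Slc2a3, the high-affinity GLUT3 of embryonic and neural cells, was at 4.65 and 5.10 without RFP and 4.47 and 4.81 with it, a difference of -0.24 ± 0.29 with overlapping fractions. Neither transporter passed the test (adjusted p of 0.984 and 0.822, limma).

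In the upper, energy-spending steps, 7 of 10 genes lay below 0 and 3 above, with a median of -0.06. The hexokinases of broad expression, which trap glucose as its phosphate, lay on opposite sides of 0. Hk1, the housekeeping form, was at 3.08 and 3.24 in the RFP-negative and 3.42 and 3.59 in the RFP-positive arrays. Both RFP-positive values were higher, with a difference of 0.34 ± 0.23 and an adjusted p of 0.755. A second Hk1 probe gave -0.50 with overlap, and the mean of both probes gave -0.08, so the direction rests on the probe. Hk2, the hypoxia-inducible form, was at 2.83 and 3.48 without RFP and 2.54 and 2.93 with it. These fractions overlapped, with a difference of -0.42 ± 0.33 and an interval from -1.28 to 0.45.

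Hk3, the form typical of myeloid cells, read -5.40 and -5.26 on the RFP-negative arrays, where it was not well above background, and -3.56 and -3.17 on the RFP-positive arrays, where it was. Because the lower values are at background, the ratio is given only as a bound, which holds for the reported background correction alone. It was 1.68-fold, taking the lowest level that counts as well above background on each RFP-negative array. With normexp background correction, whose offset of 50 draws dim signals together, the log2 difference of Hk3 was 0.12, below that bound. The size for Hk3 thus depends on the background correction, and no difference is read from it.

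Phosphofructokinase commits sugar phosphate to glycolysis, and all 3 of its subunit genes lay below 0. Pfkl, the liver-type subunit, was at 4.81 and 4.88 in the RFP-negative and 4.42 and 4.11 in the RFP-positive arrays. Both RFP-positive values were lower. The difference was -0.58 ± 0.24, a 1.49-fold lower mean, with an interval from -1.21 to 0.06 and an adjusted p of 0.745. Pfkp, the platelet-type subunit, was at 1.33 and 1.59 without RFP and 1.05 and 1.26 with it, a difference of -0.31 ± 0.25. Its fractions did not overlap, but a second probe gave 0.12 with overlap. Pfkm, the muscle-type subunit, had a difference of -0.07 with overlapping fractions, which turned to 0.0092 with median scaling.

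Aldolase cleaves fructose bisphosphate, and its isoforms lay on opposite sides of 0. Aldoa, the main form outside liver and brain, was at 8.46 and 8.23 in the RFP-negative and 8.11 and 8.03 in the RFP-positive arrays. It was lower without overlap, with a difference of -0.28 ± 0.23 and an interval from -0.89 to 0.34. Aldoc, the brain form, was at 2.25 and 1.97 without RFP and 2.47 and 2.42 with it. It was higher without overlap, by 0.34 ± 0.24, with an interval from -0.29 to 0.96, and neither aldolase passed the test (adjusted p of 0.781 and 0.761). Gpi1 and Tpi1, the isomerases of this stretch, had a difference of -0.05 each, and both turned to above 0 with quantile or median scaling, normexp or the deposited value table as given.

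**Figure D3:**
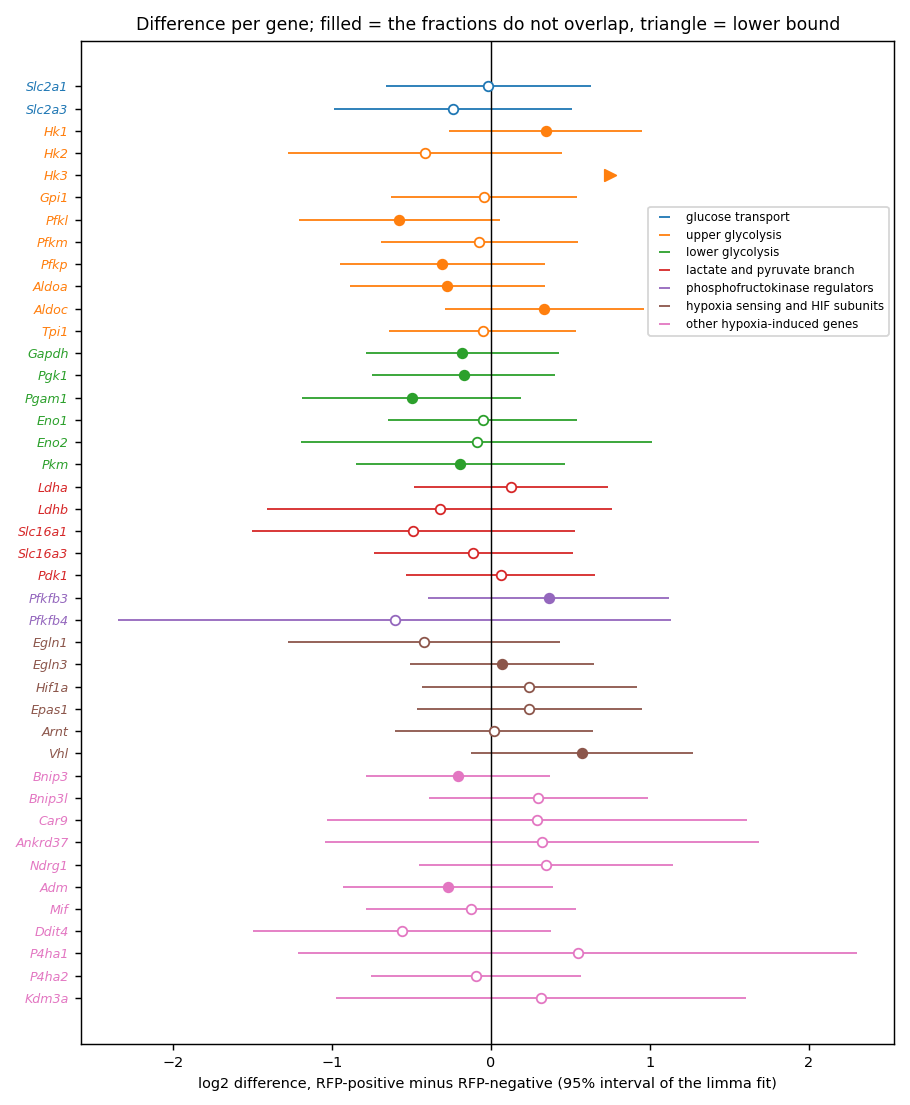
Log2 difference of each of the 42 genes, RFP-positive minus RFP-negative (horizontal axis), with the 95% interval of the limma fit as a line, coloured by role. Filled points are genes whose fractions do not overlap. The Hk3 triangle is a lower bound under the reported background correction only, with no interval. The 41 intervals drawn include 0, and the 6 lower glycolysis points lie on the left.

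In the lower, energy-yielding steps all 6 genes lay below 0, with a median of -0.18, and 4 of the 6 were lower without overlap, beside 21.6% of all genes. None passed the test. In the 9 alternatives that move the median it was below 0, from -0.19 to -0.02. The 4 genes lower without overlap became 3 with median scaling or normexp, 2 with the deposited table as given and 1 with quantile normalization. Eno1 lay above 0 with quantile normalization, median scaling and the table as given. With any 1 array left out, 5 of the 6 lay below 0.

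Gapdh, which oxidises glyceraldehyde phosphate and is often used as a reference gene, was at 8.67 and 8.63 in the RFP-negative and 8.58 and 8.36 in the RFP-positive arrays. The difference was -0.18 ± 0.23, with an interval from -0.79 to 0.43. All 7 of its probes were well above background on all arrays, and 5 of them were lower without overlap. They ranged from -0.75 to 0.02. Gapdh has many near-identical pseudogene copies, so some probes may read more than one locus.

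Pgk1, which makes the first ATP of the pathway, had the tightest replicates of this group: 6.79 and 6.78 without RFP and 6.61 and 6.61 with it. The difference of -0.17 ± 0.22 was larger than the gap within either fraction, but limma's error, drawn partly from all genes, left an interval from -0.75 to 0.40 (adjusted p of 0.830). Pgam1, which moves the phosphate group of phosphoglycerate, was at 7.12 and 7.14 in the RFP-negative and 6.86 and 6.41 in the RFP-positive arrays. It was 1.41-fold lower, with a difference of -0.50 ± 0.26, an interval from -1.19 to 0.19 and an adjusted p of 0.750.

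Pkm, the pyruvate kinase of most non-liver cells, was at 7.36 and 6.98 without RFP and 6.98 and 6.97 with it. RFP-negative replicate 1 alone was high, and the other three arrays agreed to within rounding, so the lack of overlap rests on the third decimal. The difference was -0.19 ± 0.25. The enolases Eno1, the common form, and Eno2, the neuronal form, differed by -0.05 and -0.09 with overlap.

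Pyruvate leaves the pathway towards lactate or mitochondria, and on the probes used none of the 5 genes of this branch separated the fractions. Ldha, the lactate-forming subunit, was at 8.04 and 7.93 in the RFP-negative and 8.21 and 8.01 in the RFP-positive arrays. Its difference was 0.13 ± 0.23, with an interval from -0.48 to 0.74; its 3 probes gave 0.13 with overlap and 0.16 and -0.56 without, in opposite directions, and their mean was -0.09. Ldhb, the subunit that favours pyruvate, was at 3.70 and 3.52 without RFP and 3.83 and 2.75 with it. RFP-positive replicate 2 alone was low: the difference was -0.32 ± 0.42, and without that array it was 0.21. Pdk1, the HIF-induced kinase that turns pyruvate dehydrogenase off, was at 0.25 and 0.38 in the RFP-negative and 0.43 and 0.32 in the RFP-positive arrays, a difference of 0.06 ± 0.23. The lactate carriers Slc16a1 and Slc16a3 differed by -0.49 and -0.11 with overlap.

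The enzymes that set the level of fructose 2,6-bisphosphate, the activator of phosphofructokinase, had values on opposite sides of 0. Pfkfb3, the hypoxia-inducible form, was at 2.35 and 2.50 in the RFP-negative and 2.50 and 3.07 in the RFP-positive arrays. It was higher without overlap by 0.36 ± 0.29, although RFP-positive replicate 1 exceeded RFP-negative replicate 2 only in the third decimal. A second probe also gave no overlap, with a difference of 0.94. Pfkfb4 differed by -0.61 ± 0.67, the lowest value of the 42, and turned to 0.37 without RFP-positive replicate 2.

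Of the 6 genes of oxygen sensing and the HIF complex, 5 lay above 0 and 1 below, with a median of 0.16. Of all genes 54.8% lay below 0. The gene below is Egln1, near background and kept through the RFP-negative arrays. The 5 genes well above background on all 4 arrays had a median of 0.24. In the 10 alternatives that move the median of this group it was above 0, from 0.03 to 0.24. Vhl, which recognises hydroxylated HIF alpha for destruction, was at 0.16 and 0.25 in the RFP-negative and 0.55 and 1.01 in the RFP-positive arrays. It was higher without overlap by 0.57 ± 0.27, with an interval from -0.13 to 1.27 and an adjusted p of 0.745.

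The HIF alpha subunits had like differences. Hif1a, present in most cells, was at 2.57 and 2.40 without RFP and 2.54 and 2.92 with it, and Epas1, the alpha subunit prominent in endothelium, at 2.41 and 2.88 without RFP and 2.97 and 2.81 with it. The differences were 0.24 ± 0.26 and 0.24 ± 0.27, both with overlap. The 3 Epas1 probes gave 0.24, 0.27 and -0.12. Arnt, the partner of both, was at 2.02 and 2.14 in the RFP-negative and 1.97 and 2.22 in the RFP-positive arrays. Its difference was 0.02 ± 0.24, but a second, dimmer probe was lower without overlap, with a difference of -0.62, and the mean of both was -0.30.

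The prolyl hydroxylases differed in how well they were measured. Egln3, itself induced by HIF, was at 1.69 and 1.73 without RFP and 1.79 and 1.76 with it. Its difference was 0.07 ± 0.22 without overlap, but a second probe gave 0.26 with overlap. Egln1, the main oxygen sensor, was near background: -3.10 and -3.42 in the RFP-negative and -3.34 and -4.03 in the RFP-positive arrays, of which 1 was well above background. The difference was -0.42 ± 0.33 with overlap. Egln1 was kept through the RFP-negative arrays, so no difference is read from it.

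The 11 further hypoxia-induced genes were mixed, 5 below 0 and 6 above, with a median of 0.29 that turned to -0.02 with normexp, -0.21 without RFP-negative replicate 2 and -0.10 without RFP-positive replicate 2. Bnip3, a mitophagy receptor and a standard HIF target, was at 3.68 and 3.68 without RFP and 3.45 and 3.51 with it. It was lower without overlap, with a difference of -0.21 ± 0.22. Its other probes gave -0.03 with overlap and, on a probe well above background on 3 arrays, -1.81.

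Adm, which encodes the vasodilator peptide adrenomedullin, was at 0.31 and -0.04 in the RFP-negative and -0.06 and -0.21 in the RFP-positive arrays, a difference of -0.27 ± 0.25 with the nearest arrays almost level. The related mitophagy receptor Bnip3l lay on the other side: its 4 probes gave 0.24 to 0.32, and 2 of them were higher without overlap. The growth-restraining stress gene Ddit4 differed by -0.56 ± 0.36 and the collagen prolyl hydroxylase subunit P4ha1 by 0.55 ± 0.68, both with overlap. A second, dimmer P4ha1 probe, well above background on 3 arrays, was higher without overlap, with a difference of 1.47. The cytokine Mif gave -0.13, -0.49 and -0.55 on its 3 probes, all with overlap. The carbonic anhydrase Car9, the histone demethylase Kdm3a, Ankrd37, Ndrg1 and P4ha2 also overlapped, with differences from -0.10 to 0.35. None of these 11 genes passed the test.

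**Figure D4:**
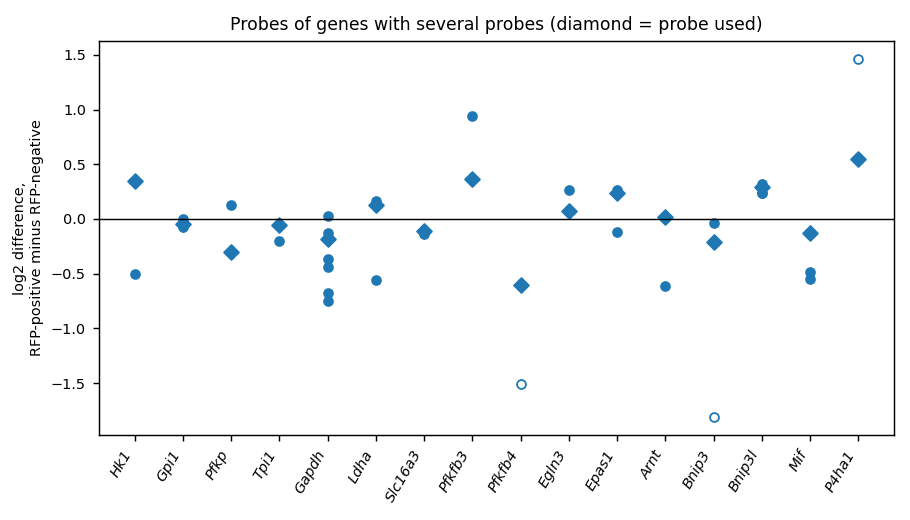
Log2 difference (vertical axis, RFP-positive minus RFP-negative) of every probe of the 16 genes with 2 or more probes (horizontal axis). Diamonds are the probes used for the gene and circles the others; filled marks were well above background on all 4 arrays. Gapdh, Hk1, Ldha, Arnt, Epas1 and Pfkp have well measured probes on both sides of 0.

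Of the 42 genes 26 had a single probe. Of 14 genes with at least 2 probes well above background on all arrays, 8 had all such probes on one side of 0 and 6 had them on both. Group medians were also recomputed under each alternative setting.

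**Figure D5:**
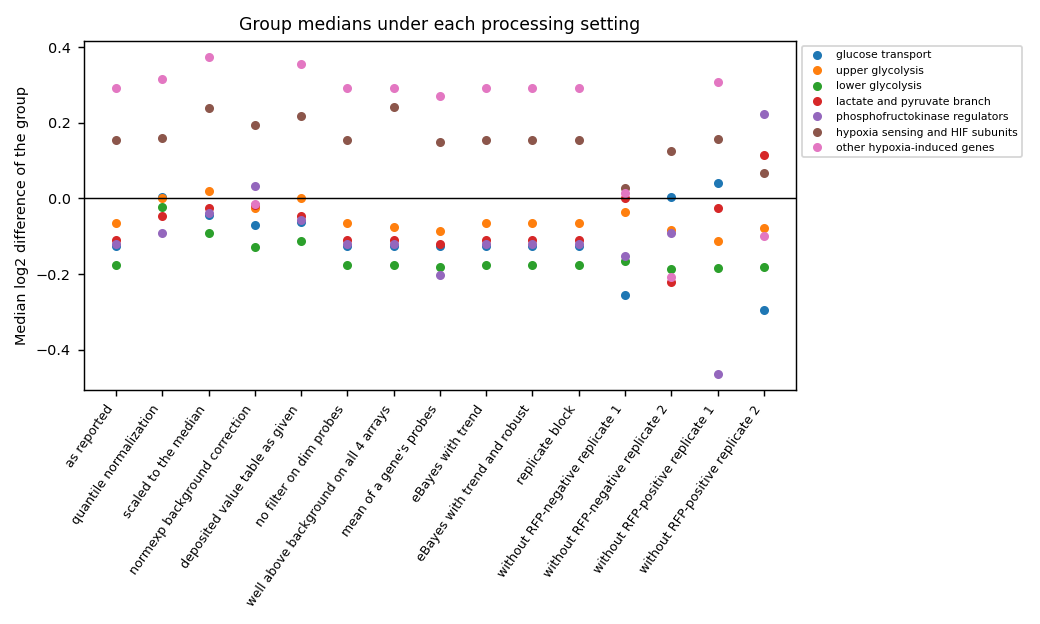
Median log2 difference of each group of genes (vertical axis) under each processing setting (horizontal axis), coloured by role. The lower glycolysis median stays below 0 and the oxygen sensing and HIF median above 0 in every setting drawn, while the others cross 0 in at least one.

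A wider list of 79 genes around these pathways was read in the same fit, and 71 of them were tested. None of the 71 passed the adjusted test. At an unadjusted p under 0.05, 7 passed (3 higher and 4 lower). Of all genes tested 6.49% did, 2.77% higher and 3.72% lower. Gapdhs, well above background on only 1 RFP-negative array, is among the 3 higher, and no difference is read from it. Of the 71, 22 (31.0%) were lower and 7 (9.86%) higher without overlap, beside 21.6% and 18.8% of all genes. Their median was -0.16, with 50 below 0 and 21 above. All 7 genes of the pentose phosphate pathway, which draws glucose phosphate off to make NADPH and ribose, lay below 0. Their median was -0.34, which is the value of Rpia. Rpia was well above background on only 1 RFP-positive array and was kept through the RFP-negative arrays, so no difference is read from it. The 6 genes of this pathway well above background on all 4 arrays also lay below 0, with a median of -0.41. With median scaling 6 of the 7 lay below 0. Without RFP-positive replicate 2 it was 5 of 7, with a median of -0.16, and with any other array left out 6 of 7. G6pdx, Pgls, Pgd and Tkt of this pathway were lower without overlap, with differences of -0.60, -0.85, -0.22 and -0.62. RFP-positive replicate 2 was further below the RFP-negative mean, with a median of -0.69, than replicate 1, with -0.16. Of 13 genes of pyruvate entry to mitochondria 11 lay below 0 and 2 above, with a median of -0.19. The 8 other isoenzymes of glycolysis had 3 below and 5 above, the 11 genes of gluconeogenesis and glycogen 8 and 3, and the 32 further genes of the HIF pathway 21 and 11.

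The 6 genes of this wider list with the smallest p-values lay on both sides of 0. Pcx, pyruvate carboxylase, was at -1.95 and -1.40 in the RFP-negative and -3.36 and -3.08 in the RFP-positive arrays, a difference of -1.55 ± 0.30 (adjusted p of 0.619) that was -0.64 with normexp. Pgf, a VEGF-family growth factor that binds Flt1, was at -1.52 and -1.69 without RFP and -0.55 and -0.83 with it, a difference of 0.92 ± 0.24 (adjusted p of 0.704) that was 0.52 with normexp. Vegfa, the HIF-induced ligand of Flk-1, was at 3.72 and 3.73 in the RFP-negative and 4.39 and 4.70 in the RFP-positive arrays. Its difference was 0.82 ± 0.24, with an adjusted p of 0.727. With the mean of its probes it was 0.14, so the size rests on the probe.

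G6pc, the glucose-releasing phosphatase of liver and kidney, was at -2.28 and -2.73 in the RFP-negative and -3.44 and -3.24 in the RFP-positive arrays, a difference of -0.84 ± 0.27 that was -0.38 with normexp. Pgls, which acts early in the pentose phosphate pathway, was at 1.18 and 0.58 without RFP and 0.20 and -0.13 with it. Gapdhs, the sperm form of Gapdh, was at -3.47 and -5.20 in the RFP-negative and -2.46 and -0.01 in the RFP-positive arrays, with 1 RFP-negative array well above background. It was kept through the RFP-positive arrays, and its replicates were far apart in both fractions, so no difference is read from it. The adjusted p of G6pc and of Pgls was 0.745.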

How the data were processed

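Total RNA was labelled with Cy3 and hybridised to 1-colour Agilent arrays. Per the file headers, spots were read by version 10.10.1.1 of Agilent's Feature Extraction, and the deposited processed intensity is background-corrected by that software and not normalized between arrays. The deposited value table holds the same intensity times 1 constant per array, chosen in a way that the sources used here do not state. From these values log2 levels were computed as log2 intensity minus that of the array's 75th percentile over 59305 non-control spots (3671 control spots were left out). Spots of a probe were averaged, a gene was read from its probe of highest mean, and genes well above background on both arrays of at least 1 fraction were kept. Of 55681 probes, 27235 were given a gene through RefSeq accessions and 28446 were not. Differences were tested with limma 3.58.1 (R 4.3.3; lmFit and eBayes, no block) with Benjamini-Hochberg adjustment over 13435 genes, and the script was tested on simulated data. The number of arrays limits the precision. Alternatives changed the scaling, background correction, filter, probe rule, variance model, replicate block and arrays left out. Promoter windows are RefSeq's on GRCm38.p6; none was matched for Bnip3l, Epas1, Ndrg1 and Slc2a3. All 42 genes are named. Values on each array are given for those whose fractions do not overlap and for 19 main enzymes, transporters and regulators, and for the 6 genes of smallest p in the wider list with at least 2 arrays well above background. The genes and lists were chosen with earlier results of these data known.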

Additional observations from a re-analysis of the deposited data

How the results depend on the processing

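The number of genes past the adjusted threshold was 0 in all 15 alternatives, for the 42 genes and for all genes; those that change only the variance model, the block or the filter leave each difference as it is. The replicate numbers are not stated to pair the arrays: deviations of same-numbered arrays correlated at 0.0922 over genes and the labels name no shared culture. With the replicate block 0 genes passed, 1039 genes had an unadjusted p under 0.05 in place of 872, and of the 42 genes 1 did. With limma's trend in the variance model 3 of the 42 did, beside 938 of all genes. Its robust form gave 3, beside 924. With the mean of a gene's probes 2 of the 42 had an unadjusted p under 0.05, beside 856 of all genes. Without RFP-positive replicate 1, 7 of the 42 had one, as had 2754 of all genes. The median of all genes was -0.05 as reported and 0.03 with median scaling.

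The median difference of the 42 genes was 0.043 with quantile normalization, 0.020 with median scaling, -0.017 with normexp and 0.00015 with the deposited value table as given, an alternative chosen after seeing the data. It ran from -0.084 to -0.0089 with 1 array left out. Genes higher without overlap numbered 11 with median scaling (24.4% of all genes) and 10 with normexp (18.6%), and 11 to 14 with 1 array left out (30.3% to 34.4%). Genes lower without overlap numbered 5 in the table as given (19.5%) and 15 to 19 with 1 array left out (32% to 46.9%). Genes at least 2-fold apart numbered 0 with normexp or when all 4 arrays had to be well above background, which leaves Hk3 out, and 1 to 2 with 1 array left out. The HIF core's share was 65.8% for ACGTG alone.

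Of 48 named genes, 30 kept their direction in every alternative, and 38 in every one that used all 4 arrays. With quantile normalization the difference was 0.15 for Slc2a1, 0.063 for Gpi1, 0.11 for Tpi1, 0.11 for Eno1 and 0.050 for Mif. With median scaling it was 0.068 for Slc2a1, 0.038 for Gpi1, 0.0092 for Pfkm, 0.031 for Tpi1 and 0.033 for Eno1. With normexp it was 0.054 for Slc2a1, 0.0037 for Gpi1, 0.037 for Tpi1 and -0.015 for Car9. In the deposited table as given it was 0.048 for Slc2a1, 0.018 for Gpi1, 0.011 for Tpi1 and 0.013 for Eno1. With the mean of a gene's probes it was -0.080 for Hk1, -0.090 for Ldha and -0.30 for Arnt. Each of these turned the direction, and the cause was not tested.

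With 1 array left out in turn, the lowest and highest differences had opposite signs for 16 genes. They were -0.18 and 0.15 for Slc2a1, -0.099 and 0.0070 for Gpi1, -0.18 and 0.026 for Pfkm, -0.13 and 0.023 for Tpi1, and -0.11 and 0.014 for Eno1. For Eno2 they were -0.64 and 0.46, for Ldhb -0.86 and 0.21, for Slc16a3 -0.22 and 0.0015, for Pfkfb4 -1.58 and 0.37, and for Arnt -0.11 and 0.15. For Car9 they were -0.29 and 0.88, for Ankrd37 -0.41 and 1.05, for Mif -0.27 and 0.014, for P4ha1 -0.24 and 1.33, for P4ha2 -0.23 and 0.042, and for Kdm3a -0.33 and 0.96. In these fits the lone array of a fraction is assumed to vary like the other fraction. Hk3 on the RFP-negative arrays and Egln1 on 1 RFP-positive array were at background, which limits both.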
